A study of Mus musculus with 11 samples.

Results

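The let-7 and miR-98 family comprised 21 of the 1096 mature miRNA entries measured in cultured mouse spermatogonial progenitor cells (SPCs). Members were taken by name alone, as every entry with the stem let-7a, b, c, d, e, f, g or i or miR-98 on either arm of its hairpin. They were 9 guide strands from the 5′ arm (5p) and 12 passenger strands from the 3′ arm (3p). SPCs are germline progenitors grown from testis cells of mice at postnatal day 6, as labelled, and the labels give the strain as C57BL/6, whereas the study's methods describe Thy1-positive cells of B6;129S-Gt(Rosa)26Sor/J mice on feeder layers of STO fibroblasts. The control culture had received a lentiviral control vector (shVector), and the knockdown culture a short hairpin RNA against Mov10, named shMov10-832 for the RNA-seq samples of the same study and only as Mov10 knockdown in the labels of the small RNA library, so both groups share the feeder layer and the transduction. Each group had 1 small RNA library, so no value has a replicate error, and intervals cover counting error only. A read-based test here compares 2 libraries, not 2 conditions, and whether triplicate cultures were pooled is not stated. MOV10 is an RNA helicase known to associate with the miRNA machinery, and since a small RNA library does not contain the Mov10 mRNA, the depletion could not be checked from these tables.

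A miRNA is cut from a hairpin as a short duplex. One strand, the guide, is retained by an Argonaute protein and pairs with mRNAs mainly through its seed, while the passenger strand is mostly discarded. The let-7 family is made from many loci with 1 shared seed and is known for its rise as cells leave the stem or progenitor state. LIN28, a protein of undifferentiated spermatogonia, is known to bind let-7 precursors and block their maturation.

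All 9 guide strands carry the same seed, and their sequences from RefSeq (GRCm38.p6) are printed 5′ to 3′ with the seed, bases 2 to 8, in capitals, because the differences outside it are all that separates the members.
let-7a-5p: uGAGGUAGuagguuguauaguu
let-7b-5p: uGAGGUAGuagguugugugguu
let-7c-5p: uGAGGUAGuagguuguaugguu
let-7d-5p: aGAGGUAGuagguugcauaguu
let-7e-5p: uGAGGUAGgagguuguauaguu
let-7f-5p: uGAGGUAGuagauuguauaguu
let-7g-5p: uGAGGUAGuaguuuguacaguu
let-7i-5p: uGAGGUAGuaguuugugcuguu
miR-98-5p: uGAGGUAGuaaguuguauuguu

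Each guide strand is 22 nt long, so that the deposited TPM values can be set side by side without a length correction. Counted from the 5′ end and against let-7a-5p, let-7c-5p differs by A19G, let-7e-5p by U9G and let-7f-5p by G12A. let-7b-5p differs from let-7a-5p by A17G and A19G, let-7d-5p by U1A and U16C, let-7g-5p by G12U and U18C, and miR-98-5p by G11A and A19U. let-7i-5p has the most differences, 4, namely G12U, A17G, U18C and A19U. let-7a-5p and let-7c-5p first part at base 19, so a read that ends before it cannot be assigned to either, and 17 bases are needed to tell let-7b-5p, let-7g-5p or let-7i-5p from the other guides. let-7d-5p is the only guide that begins with A.

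The passenger strands vary more, and those of the hairpins on which the comparison of arms turned are printed here in capitals within their hairpins, each with its guide, also in capitals and nearer the 5′ end.
Mirlet7d: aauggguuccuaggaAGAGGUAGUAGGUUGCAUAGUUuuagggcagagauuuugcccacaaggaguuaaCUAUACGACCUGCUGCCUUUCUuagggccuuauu
Mirlet7b: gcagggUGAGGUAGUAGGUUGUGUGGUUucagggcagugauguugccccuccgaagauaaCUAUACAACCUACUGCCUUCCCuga
Mirlet7e: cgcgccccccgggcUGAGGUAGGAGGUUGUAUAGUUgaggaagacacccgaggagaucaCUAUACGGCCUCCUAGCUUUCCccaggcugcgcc
Mir98: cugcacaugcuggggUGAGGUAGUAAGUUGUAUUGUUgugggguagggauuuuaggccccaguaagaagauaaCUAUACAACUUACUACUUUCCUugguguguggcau

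let-7a-1-3p and let-7c-2-3p, from hairpins on different chromosomes, have 1 and the same sequence, shown here because their reads cannot be assigned to a locus.
let-7a-1-3p: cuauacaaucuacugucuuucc
let-7c-2-3p: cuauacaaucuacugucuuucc

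Each of these entries had 156 reads in the control library, and in the knockdown library they had 67 and 68, close to an even split. They are therefore described together, and let-7a and let-7c were joined wherever the arms of a hairpin were compared.

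The 12 hairpins of the family lie on 7 chromosomes (GRCm38), and 7 of them lie within 10 kb of another. Mirlet7d (chr13:48536012-48536114), Mirlet7f-1 (chr13:48537829-48537917) and Mirlet7a-1 (chr13:48538179-48538272) form a cluster on the minus strand in exons of the lincRNA gene 6720427I07Rik. Mirlet7c-2 (chr15:85706603-85706697) and Mirlet7b (chr15:85707319-85707403) lie in exons of the noncoding gene Lncppara. Mirlet7f-2 (chrX:151912346-151912428) and Mir98 (chrX:151913214-151913321) lie in an intron of Huwe1, which encodes a ubiquitin ligase. The single hairpins are Mirlet7g in an intron of Wdr82 (chr9:106178840-106178927), Mirlet7e in an intron of Spaca6 (chr17:17830352-17830444), Mirlet7c-1 in an intron of Mir99ahg (chr16:77599657-77599750), Mirlet7a-2 in introns of 3110039I08Rik and Gm49317 (chr9:41536716-41536811), and Mirlet7i in an exon of the pseudogene D630033A02Rik (chr10:122985640-122985724). let-7a-5p, let-7c-5p and let-7f-5p can each come from a pair of hairpins, and their reads were deposited as 1 entry.

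The control library held 9628835 reads on miRNAs and the knockdown library 2794593. The deposited TPM is the number of reads per 1000000 of each library's own total (10518277 for the control, 3194363 for the knockdown), so 1 read was worth 0.0951 and 0.313 TPM. A loss shared by all small RNAs of a library does not appear in TPM. Because the knockdown library was smaller, the same members that were higher in TPM had fewer raw reads. Of the germ and stem cell markers, 14 of 14 had reads, with a summed level of 69126 TPM in the control and 42859 TPM in the knockdown, and miR-302b-3p and miR-302d-3p, markers of pluripotent cells, had at most 2 reads in either library. The 8 fibroblast and mesenchymal markers, which bear on the feeder layer, summed to 130099 and 209702 TPM. In both libraries the fibroblast list summed to more than the germ cell list, and 2 of its miRNAs that are known to be widely expressed, miR-21a-5p and miR-22-3p, made up most of it (51967 and 50581 TPM in the control). Most of the germ and stem cell sum came from miR-871-3p (49591 TPM in the control). The order of the sums thus rests on few entries.

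In control SPCs the guide strands together had 225310 reads, which is 2.34% of all miRNA reads (95% Wilson interval 2.33 to 2.35%). let-7f-5p was the most abundant member, with 90520 reads or 8606 TPM, and ranked 27 among all miRNAs. let-7i-5p followed at 4835 TPM, let-7a-5p at 2705 TPM and let-7c-5p at 1999 TPM. let-7e-5p had 1231 TPM, let-7g-5p 1030.4 TPM and miR-98-5p 432 TPM. The lowest guides, let-7b-5p at 294 TPM and let-7d-5p at 287 TPM, could not be told apart by their counting intervals (3092 and 3021 reads), whereas all other neighbours in the order were separated by more than counting error. The level of let-7f-5p was 30.0 times that of let-7d-5p. The order of reads between sequences can also depend on ligation and amplification in library preparation, which was not tested.

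In Mov10 knockdown SPCs the guide strands had 113897 reads, or 4.08% of all miRNA reads (4.05 to 4.10%). let-7f-5p remained first at 12853 TPM and ranked 17, followed by let-7i-5p at 9292 TPM, let-7a-5p at 4589 TPM and let-7c-5p at 3652 TPM. Below these were let-7e-5p at 1830.1 TPM, let-7g-5p at 1669 TPM, miR-98-5p at 837 TPM, let-7b-5p at 572 TPM and let-7d-5p at 361 TPM. The order of the 9 guides was the same as in the control, but let-7b-5p and let-7d-5p were now separated, with 1828 and 1154 reads.

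**Figure D1:**
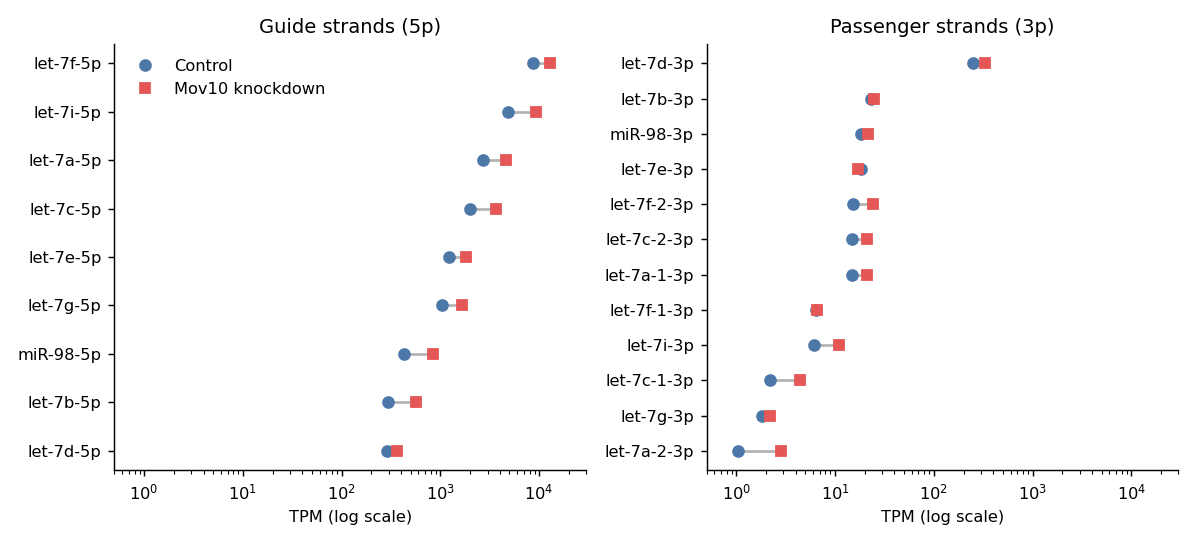
Level of each guide strand (left) and passenger strand (right) in TPM on a log axis, 1 control library (circles) and 1 Mov10 knockdown library (squares). The 9 guides lie between 287 and 12853 TPM, all with the knockdown symbol to the right, and let-7d-3p stands apart from the other passengers at 251 and 330 TPM. With 1 common total for both libraries, which does not correct for the smaller knockdown library, every guide would be lower in the knockdown.

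In TPM, every guide strand of the family was higher in the Mov10 knockdown library. The summed guide strands went from 21421 to 35656 TPM, a 1.66-fold difference or 0.74 on the log2 scale (95% exact conditional interval 0.72 to 0.75), but in raw reads, with 1 common total for both libraries, the value turned to -0.98. Of the 9 guides, 6 of 9 were higher over 1.5-fold, where 15.8% of the 607 miRNAs above 1.5 TPM were. None of the guides was lower over 1.5-fold, where 41.5% of the 607 were. Among the 222 miRNAs above 100 TPM in either library, which are more like the guides in level, 34 (15.3%) were higher over 1.5-fold and 74 lower. The median log2 ratio was 0.76 for the guides, -0.37 for the 607 miRNAs and -0.17 for the 222. Given the library totals, an exact binomial test with Benjamini-Hochberg adjustment over all 1096 entries called 9 of 9 guides higher, where 10.7% of all entries were called higher.

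The guides did not move by equal amounts. let-7b-5p, miR-98-5p and let-7i-5p differed most, at 0.96 (95% interval 0.88 to 1.04), 0.95 (0.88 to 1.02) and 0.94 (0.92 to 0.96) on the log2 scale of TPM + 0.1, and these 3 could not be told apart by their intervals. let-7c-5p came next at 0.87 (0.84 to 0.90), an interval that overlapped those of let-7b-5p and miR-98-5p but not that of let-7i-5p. let-7a-5p at 0.76 (0.73 to 0.79) and let-7g-5p at 0.70 (0.65 to 0.74) overlapped in their intervals. let-7f-5p at 0.58 (0.56 to 0.60) and let-7e-5p at 0.57 (0.53 to 0.62), both 1.49-fold, lay just below the 1.5-fold limit. let-7d-5p had the smallest difference, 0.33 (0.23 to 0.43), or 1.26-fold, and its interval lay below those of the other 8 guides. It is also the guide whose first base differs, and whether that bears on its value was not tested.

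**Figure D2:**
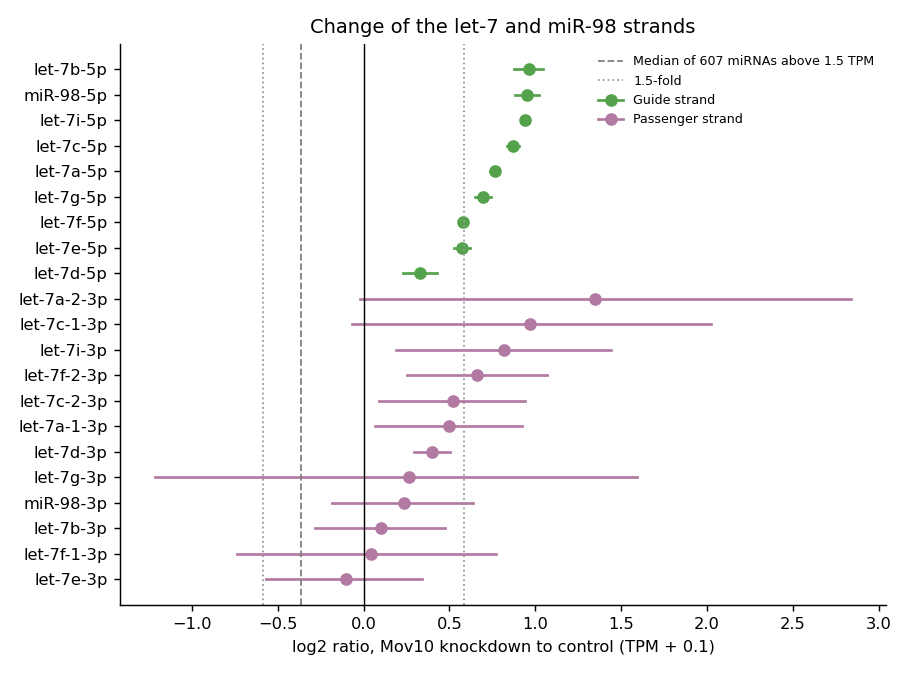
Log2 ratio of knockdown to control for the 9 guide (green) and 12 passenger strands (purple), with points on TPM + 0.1 and lines for the 95% exact conditional interval without the pseudocount, which covers counting error only. The guides lie between 0.33 and 0.96, all to the right of the dashed median of 607 miRNAs at -0.37, and the dotted lines mark 1.5-fold. With 1 common total for both libraries every value moves by -1.72 and all guides fall below 0.

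The direction of the family was the same with every total taken per library and turned only with 1 common total. With all miRNA reads as the total the summed guides were at 0.80, and with scaling by the median ratio and by TMM, which lift the median of the 607 miRNAs by 0.25 and 0.22, they were at 0.99 and 0.95. The common total leaves the smaller size of the knockdown library uncorrected and moves every miRNA by -1.72. In raw reads the guides of the knockdown library were 0.38 (let-7d-5p) to 0.59 times (let-7b-5p) those of the control library, whereas all miRNA reads were 0.290 times. The ratio of each guide thus lay above that of all miRNA reads, a comparison that does not depend on the total.

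**Figure D3:**
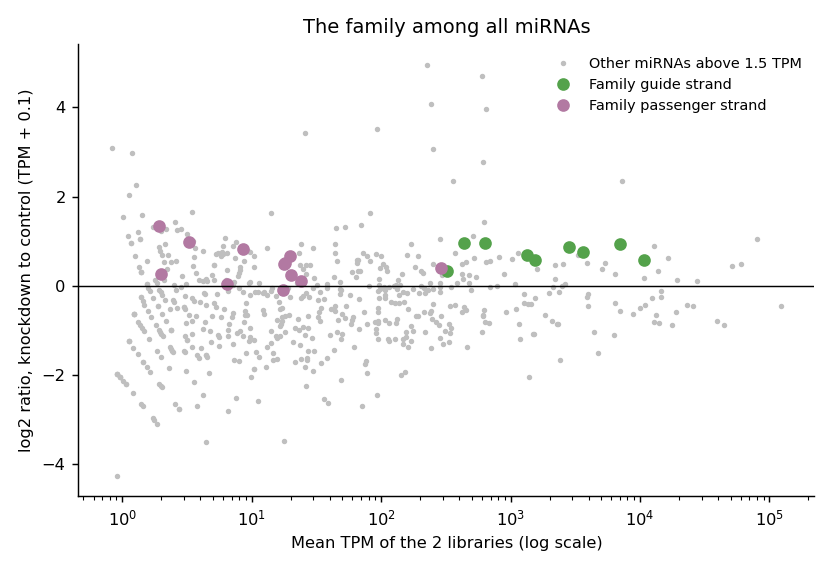
Log2 ratio of knockdown to control (TPM + 0.1) against the mean TPM of the 2 libraries (log axis) for the miRNAs above 1.5 TPM, with guides in green and passengers in purple. All 9 guides lie above 0, while the median of the 607 miRNAs lies at -0.37. With 1 common total all points move by -1.72, and every guide falls below 0.

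The make-up of the guide pool does not use the library total. let-7f-5p gave 40.2% of the guide reads in the control (95% Wilson interval 40.0 to 40.4%) and 36.0% in the knockdown (35.8 to 36.3%). let-7i-5p gave 22.6% (22.4 to 22.7%) and 26.1% (25.8 to 26.3%). These 2 members moved in opposite directions, and their sum was 62.7% and 62.1%. let-7c-5p gave 9.33% (9.21 to 9.45%) and 10.2% (10.1 to 10.4%), whereas let-7a-5p was at 12.6% and 12.9%. let-7e-5p gave 5.75% and 5.13%, let-7g-5p 4.81% and 4.68%, and miR-98-5p 2.02% and 2.35%. let-7b-5p gave 1.37% (1.33 to 1.42%) and 1.60% (1.53 to 1.68%), and let-7d-5p 1.34% (1.29 to 1.39%) and 1.01% (0.96 to 1.07%). The intervals of let-7a-5p and let-7g-5p overlapped between the libraries, and those of the other guides did not. Counting intervals are narrow at 1154 to 90520 reads per guide, and the same comparison was not made for other miRNAs. How far such shares vary between cultures is not known from 1 library per group.

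**Figure D4:**
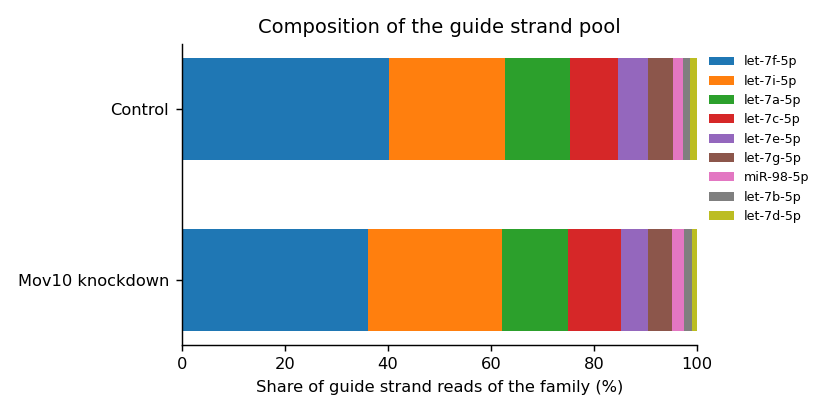
Share of each guide strand in the guide strand reads of the family (%), 1 bar per library, with members stacked in the order of the control. let-7f-5p takes 40.2% and 36.0%, and let-7i-5p 22.6% and 26.1%, while the remaining 7 members share the rest.

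The 12 passenger strands together were far rarer, with 3918 reads or 372 TPM in the control and 1555 reads or 487 TPM in the knockdown. let-7d-3p alone had 2635 and 1055 of these reads, or 251 and 330 TPM. let-7b-3p had 23.0 and 24.7 TPM, miR-98-3p 18.3 and 21.6 TPM, let-7e-3p 18.2 and 16.9 TPM, and let-7f-2-3p 15.2 and 24.1 TPM. let-7a-1-3p and let-7c-2-3p, which cannot be told apart, each had 14.8 TPM in the control, and let-7c-2-3p had 21.3 TPM in the knockdown with 1 read more than its twin. The remaining 5, let-7f-1-3p, let-7i-3p, let-7c-1-3p, let-7g-3p and let-7a-2-3p, lay between 1.05 and 11.0 TPM, with 7 to 67 reads.

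The summed passengers were higher by 0.39 on the log2 scale of TPM (95% interval 0.30 to 0.47), and with 1 common total they were at -1.33. In TPM, 11 of 12 were above 0 and let-7e-3p was at -0.10 (-0.57 to 0.34), although at 0.15 with median ratio scaling and 0.11 with TMM. Over 1.5-fold were 4 of 12, where 15.8% of the 607 miRNAs were, namely let-7f-2-3p, let-7i-3p, let-7c-1-3p and let-7a-2-3p, the last 2 of which rest on 23 and 14 reads and on 11 and 9 reads. The exact binomial test called 4 of 12 higher, where 10.7% of all entries were: let-7d-3p at 0.40 (adjusted p = 6.6e-13), let-7f-2-3p at 0.66 (adjusted p = 0.0046), let-7i-3p at 0.82 (adjusted p = 0.030) and let-7c-2-3p at 0.52 (adjusted p = 0.045). The entry of the same sequence, let-7a-1-3p, was at 0.50 with an adjusted p of 0.066 in the same exact test. Joined as 1 entry, the shared sequence had 312 and 135 reads and was at 0.51 (0.21 to 0.81, adjusted p = 0.0030 over 1095 entries, exact binomial test), and 4 of 11 passenger sequences were then called higher. let-7g-3p, with 19 and 7 reads, had an interval from -1.21 to 1.59, and a difference was not detectable at this depth.

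The share of passenger reads within a stem is free of the library total and showed where the arms parted. Over the family it was 1.71% for the control library (95% Wilson interval 1.66 to 1.76%) and 1.35% for the knockdown library (1.28 to 1.42%), a log2 change of the ratio of 3p to 5p reads of -0.35 (Woolf interval -0.43 to -0.26). Without let-7d, which holds most passenger reads, the pooled shares were 0.57% and 0.44% and the change was -0.38 (-0.53 to -0.23). The passenger share was lower in 7 of 8 stems, and Fisher's exact test on the reads, adjusted over the 342 stems with both arms in the tables, called 3 of 8 lower and none higher. Over all 342 stems, 9.36% were called with a lower 3p share and 8.48% with a higher one. The median log2 change over those of the 342 stems with reads on both arms in both libraries was -0.016.

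let-7b had the largest change, from 7.26% passenger reads (6.43 to 8.19%) to 4.14% (3.34 to 5.13%), with a log2 change of -0.86 (-1.23 to -0.48, adjusted p = 3.9e-05, Fisher's exact test). Its guide was 1.95-fold higher in TPM, and its passenger had 23.0 and 24.7 TPM. miR-98 went from 4.07% to 2.52%, a log2 change of -0.72 (-1.12 to -0.31, adjusted p = 0.0032, Fisher's exact test). let-7e went from 1.45% to 0.92%, a log2 change of -0.68 (-1.11 to -0.24, adjusted p = 0.014, Fisher's exact test). These are the stems with intermediate shares.

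let-7d was unlike the rest, since its arms were nearly equal, with 46.6% passenger reads in the control (45.3 to 47.9%) and 47.8% in the knockdown (45.7 to 49.8%). Its log2 change was 0.07 (-0.07 to 0.21), so that a change of the arms beyond 0.21 lies outside the counting interval. In let-7a and let-7c together the share was 0.69% and 0.60%, with a log2 change of -0.22 (-0.49 to 0.05). The strongest preference for the guide was that of let-7i, at 0.13% and 0.12%, let-7g, at 0.18% and 0.13%, and let-7f, at 0.25% and 0.24%. In these 3 the intervals of the change included 0, and for let-7g they ran from -1.67 to 0.83.

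**Figure D5:**
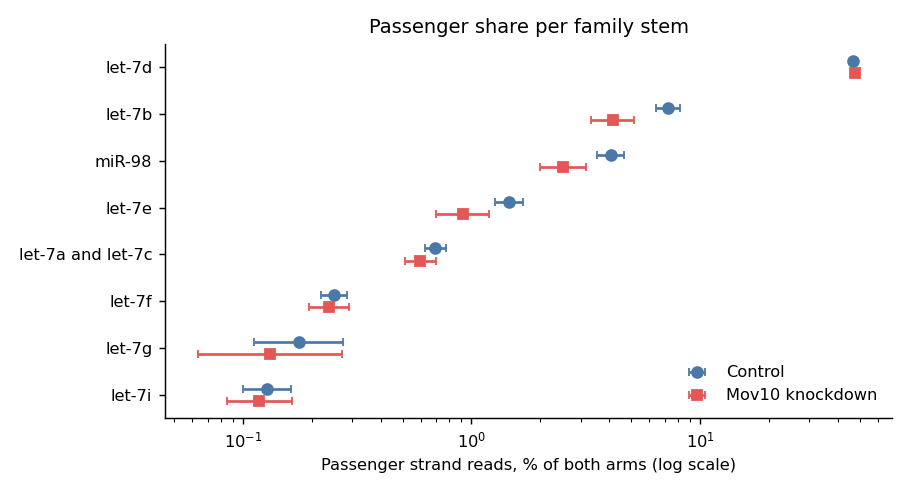
Passenger strand reads as a percentage of both arms, on a log axis, for 8 stems in the control (circles) and the knockdown (squares), with 95% Wilson intervals for counting error. let-7d lies near 47% in both libraries, and let-7b, miR-98 and let-7e are lower in the knockdown. The intervals of the 4 stems with the lowest passenger shares overlap.

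Where passengers mark a single hairpin, values can be set out by genomic cluster. In the cluster on chromosome 13, let-7d-5p was at 0.33 and let-7d-3p at 0.40 in TPM, and let-7f-1-3p, the only passenger that marks the let-7f hairpin there, was at 0.04 (-0.74 to 0.77). In the Huwe1 intron, let-7f-2-3p was at 0.66, miR-98-5p at 0.95 and miR-98-3p at 0.23. The Huwe1 locus gave 70.5% of let-7f passenger reads in the control (64.3 to 76.0%) and 78.6% in the knockdown (69.5 to 85.5%), and the log2 change had an interval from -0.19 to 1.43, so that a shift between the loci was not detectable at this depth. In neither cluster were the hairpins all separated from each other, since the interval of let-7f-1-3p held the values of both let-7d strands and that of let-7f-2-3p overlapped those of both miR-98 strands. let-7g-5p, from the Wdr82 intron, was at 0.70.

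The miR-99, miR-100 and miR-125 miRNAs are encoded beside several let-7 hairpins. Mir125a starts 460 bp from Mirlet7e, Mir99a 721 bp from Mirlet7c-1, Mir100 5291 bp from Mirlet7a-2 and Mir125b-1 45210 bp from it. Of the 11 strands of these miRNAs, 3 were higher over 1.5-fold in TPM and none lower, and their median log2 ratio was 0.26. Among the 607 miRNAs above 1.5 TPM, 15.8% were higher and 41.5% lower over 1.5-fold. miR-125a-5p, the neighbour of let-7e, was at 0.26 (0.24 to 0.29) against 0.57 for let-7e-5p, and miR-99a-5p was at 0.06 (-0.03 to 0.15) against 0.87 for let-7c-5p, which also comes from chromosome 15. miR-100-5p was at 0.63 (0.57 to 0.70) against 0.76 for let-7a-5p. Their 5p strands lay between 0.06 and 0.63, a range that held 3 of 9 guides (let-7d-5p, let-7e-5p and let-7f-5p), and the other 6 lay above it. The rarer 3p strands lay between 0.02 and 1.62, and miR-99a-3p, at 1.62 (1.14 to 2.14) with 72 and 68 reads, and miR-100-3p, at 1.28 (0.17 to 2.46) with 17 and 13 reads, were above every let-7 guide.

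Among the 908 of 1096 entries with a RefSeq sequence, 1 outside the members carries the same bases 2 to 8, let-7k, which had 2 control reads and 1 knockdown read. let-7j shares only bases 2 to 7 and differs from let-7i-5p by G8U, besides its longer 3′ end.
let-7j: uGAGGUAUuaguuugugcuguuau

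let-7j had 1949 control and 1233 knockdown reads, or 185 and 386 TPM, a log2 ratio of 1.06 (0.95 to 1.16) where let-7i-5p had 0.94. Its reads were 3.83% and 4.15% of those of let-7i-5p. By distance in log2(TPM + 0.1) over the 2 libraries, the other miRNAs nearest to let-7f-5p were miR-99b-5p (0.28), miR-34c-5p (0.38) and miR-27b-3p (0.56). They had log2 ratios of 0.19, 0.89 and 0.34.

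Markers of cell types also differed between the libraries, and of the lists only the fibroblast and mesenchymal sum was higher in TPM, as the guides were. The summed level of the 8 fibroblast and mesenchymal markers was higher in the knockdown by 0.69 on the log2 scale of TPM. The summed let-7 guides were at 0.74. Without miR-21a-5p, which SPCs are known to express, the marker sum was higher by 0.39, and the median log2 ratio of the 8 markers was 0.32. Of the 8, 1 was higher over 1.5-fold and none lower, and their log2 ratios ran from -0.42 for miR-214-3p to 1.04 for miR-21a-5p. For mature miR21a the study reported the opposite direction by RT-qPCR with U6 as internal control, significantly lower in Mov10 knockdown SPCs. Of the 14 germ and stem cell markers, 12 had reads in both libraries, all 12 of these were below 0, 9 were lower over 1.5-fold and none higher, and their summed level differed by -0.69 on the same scale. The 5 blood cell markers summed to 176 control and 34.7 knockdown TPM. All 5 were below 0 and 2 of them were lower over 1.5-fold. Of the 607 miRNAs above 1.5 TPM, 15.8% were higher and 41.5% lower over 1.5-fold, with a median log2 ratio of -0.37. With 1 common total all 3 sums would be lower in the knockdown. The part of a different mix of feeder and germ cells in the higher let-7 level was not tested, and a different number of cells of a type and a different level per cell cannot be told apart in such libraries.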

How the data were processed

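Small RNAs of 1 shVector control and 1 Mov10 knockdown SPC sample were analysed. Fastx was used by the authors to remove rRNA and adaptors, and CLC Genomics Workbench to map reads to miRBase, allowing no mismatch. For each mature miRNA the authors deposited a raw read count and a TPM value. The latter is the count over 1 total per library, which was recovered here from the ratio of both columns and whose content is not stated. RNA-seq and CLIP-seq libraries were not analysed here.

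The members, gene lists and tests were chosen with earlier results of these data known. Log2 ratios used TPM + 0.1, which understates low miRNAs, and calls needed 1.5-fold and 1.5 TPM in the higher library, after the study's thresholds. At such thresholds the study reported more lower and fewer higher miRNAs than the 252 lower and 96 higher counted here. The source of that difference was not tested. edgeR's quasi-likelihood test and DESeq2 need replicates and could not be fitted. Reads were compared by two-sided exact binomial tests given the library totals, and arms by two-sided Fisher's exact tests, both Benjamini-Hochberg adjusted over the whole table at 0.05 and tested on simulated data. 3 reads, the smallest level taken as detectable, are 0.285 TPM in the control and 0.939 TPM in the knockdown, since the reads carry no molecular identifiers and intervals cover counting error only. RefSeq sequences (GRCm38.p6) matched 21 of 21 members and 908 of 1096 entries, and host genes came from GENCODE vM21 on the same strand. All members, cluster partners, seed relatives and the 3 miRNAs nearest to the most abundant guide were named. Alternatives were other totals, pseudocounts, minima and folds, with TMM from edgeR 4.0.16. Python 3.11.15, scipy 1.17.1, pandas 2.3.3 and R 4.3.3 were used.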

Additional observations from a re-analysis of the deposited data

How the results depend on the processing

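No paired analysis was possible because both groups consist of 1 library, and no replicate could be left out. The summed guides were at 0.74 on the log2 scale with the deposited totals, 0.80 with all miRNA reads as the total, 0.76 with the family left out of the total, 0.99 with median ratio scaling, 0.95 with TMM and -0.98 with 1 common total. The summed passengers were at 0.39, at 0.64 with median ratio scaling, 0.60 with TMM and -1.33 with 1 common total. The common total shifts every log2 value by -1.72 by its construction and put 9 of 9 guides and 12 of 12 passengers below 0. Of the other totals, median ratio scaling and TMM put let-7e-3p, at -0.10 with the deposited totals, at 0.15 and 0.11. With the common total let-7d-5p was at -1.39, let-7e-5p at -1.15, let-7f-5p at -1.14, let-7a-5p at -0.96, let-7b-5p at -0.76, let-7c-5p at -0.85, let-7g-5p at -1.02, let-7i-5p at -0.78, miR-98-5p at -0.77, let-7a-2-3p at -0.26, let-7c-1-3p at -0.68, let-7f-2-3p at -1.05, let-7i-3p at -0.87, let-7c-2-3p at -1.19 and let-7d-3p at -1.32. Of the guides, 6 were higher over 1.5-fold, 0 over 2-fold, and with the common total 0 were higher and 9 lower. Of the passengers, 4 were higher over 1.5-fold, 7 with median ratio scaling or TMM, 1 over 2-fold, 2 with a minimum of 10 TPM, and with the common total 0 were higher and 11 lower. Of all miRNAs, 96 were higher and 252 lower, against 145 higher with TMM, 186 and 561 without a minimum, 40 and 161 over 2-fold, and 10 and 561 with the common total. The passenger share pooled over the family was 1.71% and 1.35%, 2.82% and 2.09% without let-7f-5p, 1.79% in the control without let-7g, and 0.57% and 0.44% without let-7d, the last chosen after seeing the data. The number of stems called by arm stayed at 3 when let-7a and let-7c were kept apart, and the number of passengers called higher by the binomial test stayed at 4 when let-7a-1-3p and let-7c-2-3p were joined, alternatives also chosen after seeing the data.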

Other observations

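Entries with identical mature sequences showed how reads with several possible origins were divided. Besides let-7a-1-3p and let-7c-2-3p, with 156 control reads each, this held for 2 more sets, named after their values were seen. miR-199a-3p, listed with 2 hairpins, took 67.6% of the control and 67.8% of the knockdown reads of its set, and miR-199b-3p, with 1 hairpin, took 32.4% and 32.2%. miR-465a-3p, with 1 hairpin, had 15704 control reads, and miR-465b-3p and miR-465c-3p, with 2 hairpins each, had 31404 and 31227. In each set the reads stood nearly in the ratio of the hairpins listed.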
